A study of Homo sapiens with 18 samples.

Results

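Aldehyde dehydrogenases (ALDH) oxidize aldehydes to carboxylic acids with NAD or NADP as the cofactor. The 10 genes described here are the members of the ALDH1, ALDH2 and ALDH3 families that were chosen by symbol, namely ALDH1A1, ALDH1A2, ALDH1A3, ALDH1B1, ALDH1L2, ALDH2, ALDH3A1, ALDH3A2, ALDH3B1 and ALDH3B2. Each was found as 1 row among the 19849 genes of the expression table, which lists 19 genes with an ALDH symbol in all. The ALDH1A enzymes turn retinaldehyde into retinoic acid, the ligand of the retinoic acid receptors. ALDH2 and ALDH1B1 act in mitochondria on acetaldehyde and related small aldehydes, ALDH1L2 is a mitochondrial folate enzyme, and the ALDH3 enzymes clear aldehydes that derive largely from lipids and aromatic compounds. High ALDH activity is widely used to mark stem-like cells in tumors, including those of the lung.

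Gene expression was measured on 18 arrays from 3 human non-small cell lung cancer lines, A549, NCI-H358 and HCC827, the last of which is driven by mutant EGFR. For each line 3 arrays held RNA of untreated parental cells and 3 held RNA of mesenchymal derivatives, labelled EMT for epithelial-mesenchymal transition. The derivatives had been kept with TGFβ, a cytokine that induces EMT, at 2 ng/ml for 3 weeks by the labels, and were moved to medium without it on the day before lysis. The methods of the study give a shorter range of treatment time for A549 than for HCC827 and NCI-H358, which share a range. The labels give all lines the same time. If the times followed the ranges of the methods instead, time and line cannot be told apart between A549 and the other lines. Times within the shared range may then also have differed. All cells grew in RPMI1640 with 10% FBS and 4 mM glutamine. The study describes the samples of a group as separate biological samples that were prepared together, so their spread does not cover differences between rounds of treatment. The labels give the arrays of a group no replicate numbers, and the numbers 1 to 3 used here follow the order of deposit and only name an array. Levels are log2 values after RMA, in which 1 unit is a doubling of signal, and 1 probe set stands for each gene. Levels of different genes are not comparable, because each probe set has its own affinity.

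The array medians lay between 6.31 and 6.47, and the standard deviation of log2 differences between arrays of the same group was 0.163 to 0.282. The state labels matched the markers of epithelial and mesenchymal cells. Log2 changes are given as mesenchymal minus parental. By limma, CDH1 (E-cadherin) was lower after EMT, by log2 changes of -5.81 (A549), -2.95 (HCC827) and -3.94 (NCI-H358). CDH2 (N-cadherin) was higher by 1.94, 3.26 and 2.04, VIM by 0.79, 2.03 and 2.31, ZEB1 by 0.79, 4.18 and 3.66 and SNAI1 by 0.52, 0.85 and 0.92 in the same order. The 8 markers of blood and endothelial cells reached at most percentile 52.7 of an array, their summed log2 level ranged from 38.10 to 41.30 over all arrays, and 2 of the 24 tests of a marker in a line passed, 1 lower in A549 and 1 higher in HCC827.

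ALDH1A3, ALDH3A2 and ALDH3B1, fell upon EMT in all 3 lines. ALDH3A1 fell in A549 and NCI-H358 cells and ALDH3B2 in HCC827 and NCI-H358 cells, whereas ALDH1L2 and ALDH2 rose in HCC827 and NCI-H358 cells. Changes were tested by limma in 1 fit of all arrays, with Benjamini-Hochberg adjustment over all 19849 genes, and a gene is said to have changed when its adjusted p was below 0.05. In A549 cells 5 of the 10 genes changed, all 5 of them lower, where 43.4% of all genes changed, 16.6% higher and 26.8% lower. In HCC827 cells 2 were higher and 4 lower, 6 in all, against 45.8% of all genes changed, 20.8% higher and 25% lower. In NCI-H358 cells 2 were higher and 5 lower, 7 in all, against 41.4% changed, 21.5% higher and 19.8% lower. In at least 1 line 8 of the 10 genes changed, against 68.8% of all genes. Mesenchymal and parental arrays did not overlap for 6 of the 10 genes in A549, for 6 in HCC827 and for 7 in NCI-H358, where 52.4%, 51.2% and 51.6% of all genes had no overlap. These counts lie near the background or moderately above it. At the stricter thresholds of the study, a fold change of more than 5 with an adjusted p under 1e-05, 1 member passed in A549 (ALDH3A1), 2 in HCC827 (ALDH1A3 and ALDH1L2) and 2 in NCI-H358 (ALDH1A3 and ALDH3A2), where 1.9%, 2.95% and 2.17% of all genes passed. In at least 1 line 4 of the 10 passed, against 5.4% of all genes. Lower in all 3 lines were 3 of the 10 members and 6.14% of all genes. The median log2 change over the 10 genes was -0.31 for A549, -0.23 for HCC827 and -0.38 for NCI-H358, against -0.02, 0.01 and 0.02 over all genes. In bulk RNA a lower level in fewer cells and a lower level in every cell cannot be told apart.

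**Figure D1:**
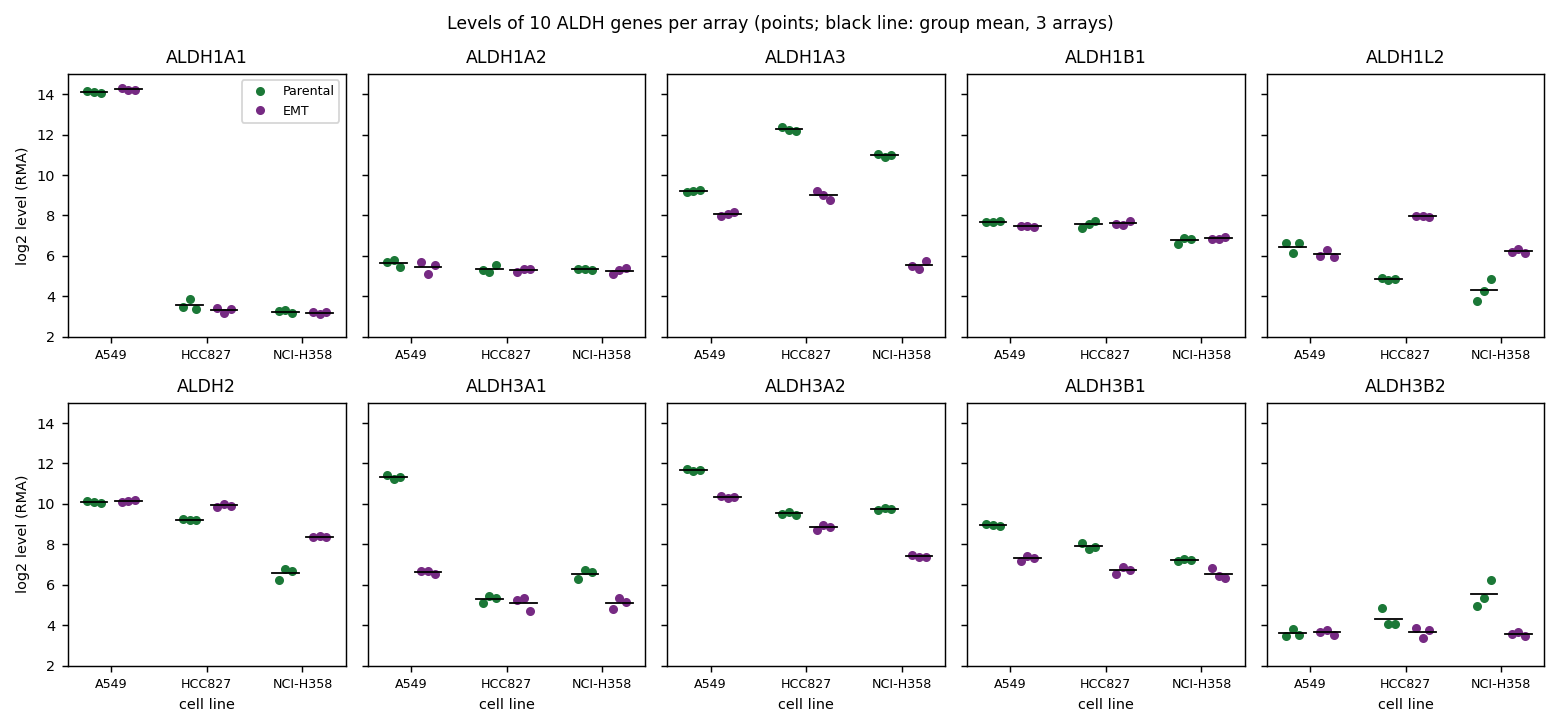
Each point is the log2 level (RMA, vertical axis) of 1 array, with 3 parental (green) and 3 mesenchymal, EMT (purple) arrays for each of the 3 lines, and black lines mark group means. ALDH1A1 lay above 14 on all A549 arrays and below 4 on all others, and ALDH1A3, ALDH3A2 and ALDH3B1 were lower on every mesenchymal array than on any parental array of the same line; levels compare within a panel only.

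The ALDH1A genes encode the retinaldehyde dehydrogenases. ALDH1A3 (Entrez gene 220) had the largest fall of the 10 genes, 42.8-fold in NCI-H358 cells. In NCI-H358 its log2 level was 11.02, 10.91 and 11.00 in the parental arrays and 5.52, 5.37 and 5.77 in the mesenchymal ones. The log2 change was -5.42 (limma adjusted p = 6.49e-16, standard error 0.11). In HCC827 cells the parental arrays read 12.37, 12.23 and 12.20 and the mesenchymal arrays 9.23, 9.01 and 8.78, a log2 change of -3.26 (limma adjusted p = 1.60e-13, standard error 0.11) or 9.59-fold. In A549 cells they read 9.14, 9.19 and 9.24 and then 7.97, 8.05 and 8.17, a log2 change of -1.13 (limma adjusted p = 1.78e-07, standard error 0.11) or 2.19-fold. No mesenchymal array of a line overlapped its parental arrays, and groups of 3 against 3 cannot give a two-sided exact permutation p below 0.1.

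The fall of ALDH1A3 was unequal between the lines. The difference of the log2 changes was -4.29 for NCI-H358 minus A549 (limma adjusted p = 9.74e-13), -2.16 for NCI-H358 minus HCC827 (adjusted p = 7.56e-09) and -2.13 for HCC827 minus A549 (adjusted p = 6.19e-09). The order of its group means ran from parental HCC827 (12.27 ± 0.09, SD, n = 3) and parental NCI-H358 (10.98 ± 0.06) through parental A549 (9.19 ± 0.05), mesenchymal HCC827 (9.01 ± 0.22) and mesenchymal A549 (8.06 ± 0.10) to mesenchymal NCI-H358 (5.56 ± 0.20). Of the neighbours in this order, only parental A549 and mesenchymal HCC827 cells did not differ by limma (difference 0.18, adjusted p = 0.168). NCI-H358 thus moved from the second highest level to the lowest, at percentile 38.1 of all genes on its mesenchymal arrays.

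ALDH1A1 (Entrez gene 216) separated the lines and not the states. In A549 cells its log2 level was 14.16, 14.11 and 14.09 in parental and 14.29, 14.22 and 14.22 in mesenchymal arrays, at the top of the signal range (percentile 99.95 of all genes in parental cells). In HCC827 it was 3.47, 3.89 and 3.35 in parental and 3.42, 3.19 and 3.38 in mesenchymal arrays. In NCI-H358 it was 3.25, 3.33 and 3.17 and then 3.24, 3.15 and 3.22. The levels of the latter lines lay between percentiles 6.59 and 11.6 of all genes on the group means, near the low end of the scale, and the table gives no call of presence or absence. The difference between parental A549 and parental HCC827 cells was 10.55 log2 units (limma adjusted p = 5.92e-20, standard error 0.10), and its lower end lies among the dimmest genes of the arrays. Upon EMT the log2 change was 0.12 for A549 (limma adjusted p = 0.376, 95% interval -0.10 to 0.35), -0.24 for HCC827 (0.0722, -0.46 to -0.02) and -0.05 for NCI-H358 (0.773, -0.27 to 0.17). The 3 mesenchymal A549 arrays all lay above the 3 parental ones, while the arrays of the other lines overlapped. The value of HCC827 lay near the threshold. It passed with dim genes filtered out (adjusted p = 0.0426) and without parental replicate 3 (adjusted p = 0.0106), over a range of 0.0106 to 0.458 with each array of that line left out.

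ALDH1A2 (Entrez gene 8854), the remaining enzyme of this group, stayed between 5.11 and 5.80 on all 18 arrays. Its log2 changes were -0.20 (95% interval -0.48 to 0.07), -0.06 (-0.34 to 0.21) and -0.07 (-0.35 to 0.20) in A549, HCC827 and NCI-H358, with limma adjusted p values of 0.232, 0.755 and 0.732, and parental and mesenchymal arrays overlapped in each line. Neighbours in the order of its 6 group means lay at most 0.20 apart and did not differ by limma (adjusted p = 0.232 or above).

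The promoters of ALDH1A1 and ALDH1A3 are shown because these related enzymes had the widest ranges of level among the 10 genes, 11.04 and 6.71 log2 units between the highest and the lowest group mean, in unlike patterns. RefSeq promoter sequences (GRCh38.p14) were used for 6 of the 10 genes, and those of ALDH1L2, ALDH2, ALDH3A1 and ALDH3B2 were not analysed here. The 250 bases before the annotated start are printed in gene direction, at chr9:72953054-72953303 on the minus strand for ALDH1A1 and at chr15:100879581-100879830 on the plus strand for ALDH1A3. Capitals mark every match, on either strand, to 1 of 4 motifs: CACCTG, an E-box bound by ZEB1 and SNAI1, CAGAC, a core bound by SMAD proteins, TGACNNNGC, the core of the antioxidant response element, and CCAAT.
ALDH1A1: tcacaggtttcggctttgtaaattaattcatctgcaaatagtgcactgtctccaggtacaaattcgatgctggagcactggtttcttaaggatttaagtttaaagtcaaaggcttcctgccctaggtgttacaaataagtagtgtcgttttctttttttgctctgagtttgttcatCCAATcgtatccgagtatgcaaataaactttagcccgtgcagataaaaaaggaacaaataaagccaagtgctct
ALDH1A3: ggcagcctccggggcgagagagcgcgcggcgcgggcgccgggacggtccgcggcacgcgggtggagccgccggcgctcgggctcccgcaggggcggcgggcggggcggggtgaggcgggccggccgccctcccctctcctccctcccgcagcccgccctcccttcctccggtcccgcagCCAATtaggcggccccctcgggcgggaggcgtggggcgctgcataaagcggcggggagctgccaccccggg
Each window held 1 CCAAT match, which begins 74 bases before the start in ALDH1A1 and 71 bases before it in ALDH1A3, and no match of the other motifs. Among 35116 RefSeq promoters of the same length 32% held CCAAT, 17.5% CACCTG, 38% CAGAC and 10.9% TGACNNNGC. The windows differed in base composition, with 38.4% G or C in ALDH1A1 (percentile 10.1 of these promoters) and 82.4% in ALDH1A3 (percentile 98.6).

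Other genes of retinoid metabolism and signalling were examined beside ALDH1A3. Of 28 listed genes in the table, 7 were higher and 7 lower in A549 derivatives, 4 higher and 9 lower in HCC827 and 2 higher and 13 lower in NCI-H358, with median log2 changes of 0.04, -0.03 and -0.30. Over all genes 16.6%, 20.8% and 21.5% were higher and 26.8%, 25% and 19.8% lower in the same order. These shares are the background for this list and for the lists below. CRABP2, which carries retinoic acid to its receptors, fell in all 3 lines, with log2 changes of -0.32, -2.49 and -1.18 (limma adjusted p = 0.00907, 5.91e-13 and 1.17e-08). CYP26A1, a retinoic acid hydroxylase whose gene is itself induced by retinoic acid, fell by 0.59, 3.33 and 0.72 log2 units (limma adjusted p = 0.000567, 3.57e-13 and 7.28e-05). PLAAT4, listed in the table under its older name RARRES3 (retinoic acid receptor responder), fell by 0.57 in A549 (limma adjusted p = 0.00221), but by 4.63 in HCC827 (3.21e-14) and 4.72 in NCI-H358 (3.89e-14). Other listed genes moved in both directions. Named after their values were seen, RARB, a retinoic acid receptor, had log2 changes of 1.12, 0.15 and -0.36 (limma adjusted p = 1.33e-08, 0.191 and 0.00264). STRA6 had 1.38, -0.01 and -0.72 (adjusted p = 7.27e-08, 0.942 and 0.000122). CYP26B1 had 0.18, 0.71 and -1.57 (adjusted p = 0.346, 0.000457 and 8.06e-08).

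Among the mitochondrial members, ALDH2 (Entrez gene 217), the main acetaldehyde dehydrogenase, rose in the lines where its parental level was lower. In NCI-H358 its log2 level was 6.25, 6.79 and 6.67 in parental and 8.36, 8.42 and 8.35 in mesenchymal arrays, a log2 change of 1.81 (limma adjusted p = 1.32e-10, standard error 0.10) or 3.50-fold. In HCC827 it was 9.24, 9.20 and 9.19 and then 9.87, 10.01 and 9.91, a log2 change of 0.72 (limma adjusted p = 1.06e-05) or 1.65-fold. In A549 it was 10.16, 10.07 and 10.05 and then 10.09, 10.14 and 10.18, a log2 change of 0.04 (95% interval -0.17 to 0.25, limma adjusted p = 0.786), and the arrays of both states overlapped only in this line. Parental group means were thus 3.52 log2 units apart between the highest and the lowest line and mesenchymal ones 1.76. In the order of the 6 levels, both A549 groups and mesenchymal HCC827 were neighbours that did not differ, and the other 3 steps did. The rise in NCI-H358 exceeded that in HCC827 by 1.09 (limma adjusted p = 9.41e-06) and that in A549 by 1.77 (adjusted p = 2.46e-08).

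ALDH1L2 (Entrez gene 160428), the mitochondrial 10-formyltetrahydrofolate dehydrogenase, had the largest rise of the 10 genes. In HCC827 it read 4.91, 4.81 and 4.85 in parental arrays and 7.96, 7.98 and 7.94 in mesenchymal arrays, a log2 change of 3.10 (limma adjusted p = 5.60e-10, standard error 0.19) or 8.59-fold. In NCI-H358 the parental arrays were spread, at 3.76, 4.28 and 4.87, and the mesenchymal arrays read 6.21, 6.33 and 6.12. The parental levels were dim, at a mean percentile of 20.1 of all genes in NCI-H358 and 28.0 in HCC827. The log2 change in NCI-H358 was 1.92 (limma adjusted p = 3.33e-07, standard error 0.19), and it ranged from 1.64 to 2.20 with 1 array of that line left out. In A549 the parental arrays read 6.62, 6.15 and 6.63 and the mesenchymal ones 5.99, 6.28 and 5.94, which overlapped. The log2 change in A549 was -0.39 (95% interval -0.81 to 0.02, limma adjusted p = 0.117), and without parental replicate 2, the lowest of its group, it was -0.55 with an adjusted p of 0.0436, over a range of 0.0436 to 0.289 with each array of that line left out. The change in HCC827 was 3.50 above that in A549 (limma adjusted p = 2.02e-08), and NCI-H358 lay 2.31 above A549 (adjusted p = 3.03e-06) and 1.18 below HCC827 (difference -1.18, adjusted p = 0.00233). Mesenchymal HCC827 cells had the highest level of the 6 groups (7.96 ± 0.02, SD, n = 3), followed by parental A549, mesenchymal NCI-H358 and mesenchymal A549, which did not differ from their neighbours among these, and then by parental HCC827 and parental NCI-H358.

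Of 14 other enzymes and carriers of folate metabolism, 11 were lower in A549 derivatives, 3 higher and 5 lower in HCC827, and 2 higher and 6 lower in NCI-H358. Named after their values were seen, the 3 genes that fell in every line were SHMT1, MTHFD2 and ATIC. SHMT1, the cytosolic serine hydroxymethyltransferase, had log2 changes of -0.84, -1.24 and -1.18 (limma adjusted p = 4.65e-08, 2.30e-10 and 5.57e-10). MTHFD2, a mitochondrial methylenetetrahydrofolate dehydrogenase, had -0.34, -0.26 and -0.27 (adjusted p = 0.00029, 0.00255 and 0.00185). For ATIC, which uses 10-formyltetrahydrofolate in purine synthesis, they were -0.29, -0.46 and -0.17 (adjusted p = 0.000343, 1.50e-06 and 0.0186).

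ALDH1B1 (Entrez gene 219), a mitochondrial relative of ALDH2, stayed between 6.59 and 7.75 on all arrays and had its lowest levels in NCI-H358. A549 gave a log2 change of -0.23 (limma adjusted p = 0.0457), HCC827 one of 0.07 (adjusted p = 0.566, 95% interval -0.12 to 0.26) and NCI-H358 one of 0.09 (adjusted p = 0.460, -0.09 to 0.28). The call in A549 was lost with any of its arrays left out (limma adjusted p = 0.0749 to 0.109) and with arrays centred on their medians (adjusted p = 0.153), although the A549 arrays of both states did not overlap. Between neighbours in the order of its levels only mesenchymal A549 and mesenchymal NCI-H358 differed, by 0.60 (limma adjusted p = 1.50e-05).

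**Figure D2:**
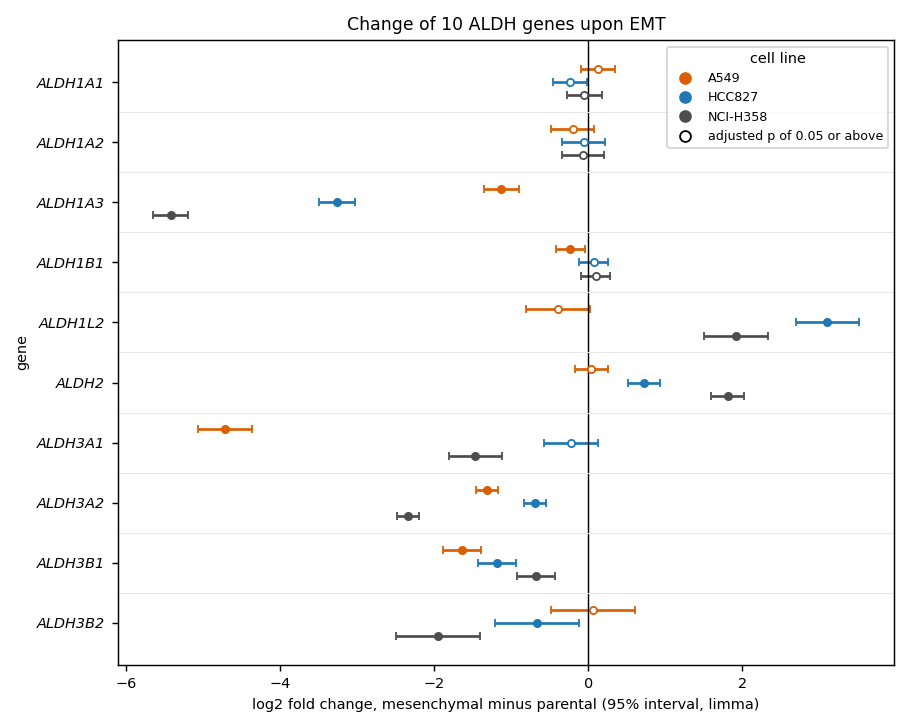
Points give the log2 change of each ALDH gene, mesenchymal minus parental (horizontal axis), for A549, HCC827 and NCI-H358 with the 95% interval from limma, 3 arrays per group; filled points have an adjusted p below 0.05. ALDH1A3 spans -1.13 to -5.42, ALDH3A1 reaches -4.72 in A549 alone, and ALDH1L2 and ALDH2 lie right of 0 in HCC827 and NCI-H358.

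The ALDH3 genes encode enzymes for aromatic and lipid-derived aldehydes, and 4 of them were measured. ALDH3A1 and ALDH3A2 are neighbours on chromosome 17, with 1 protein-coding gene between them in the RefSeq gene table, and ALDH3B1 and ALDH3B2 on chromosome 11, with 2 between them. ALDH3A1 (Entrez gene 218), an oxidant-inducible enzyme that is abundant in the cornea, fell 26.3-fold in A549 cells. There it read 11.45, 11.25 and 11.31 in parental and 6.66, 6.67 and 6.52 in mesenchymal arrays, a log2 change of -4.72 (limma adjusted p = 3.53e-13, standard error 0.16). In NCI-H358 it read 6.28, 6.75 and 6.61 and then 4.79, 5.32 and 5.13, a log2 change of -1.47 (limma adjusted p = 1.08e-06, standard error 0.16) or 2.76-fold. In HCC827 the values 5.11, 5.43 and 5.37 in parental and 5.23, 5.33 and 4.68 in mesenchymal cells overlapped, with a log2 change of -0.22 (95% interval -0.57 to 0.12, limma adjusted p = 0.305). The change in A549 was deeper than that in HCC827 by 4.49 (limma adjusted p of the difference = 9.96e-11) and than that in NCI-H358 by 3.25 (adjusted p = 5.73e-09). Only parental A549 cells stood apart at the top of the order: mesenchymal A549 (6.62 ± 0.08, SD, n = 3) and parental NCI-H358 (6.54 ± 0.24) did not differ by limma (adjusted p = 0.721), nor did parental HCC827, mesenchymal NCI-H358 and mesenchymal HCC827 as neighbours at the bottom.

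ALDH3A2 (Entrez gene 224) encodes the fatty aldehyde dehydrogenase of the endoplasmic reticulum, which also oxidizes the hexadecenal released from sphingosine 1-phosphate and is deficient in Sjögren-Larsson syndrome. Its spread within groups was small, with a standard deviation of at most 0.12. In A549 it read 11.71, 11.63 and 11.66 in parental and 10.40, 10.29 and 10.36 in mesenchymal arrays, a log2 change of -1.32 (limma adjusted p = 6.22e-11, standard error 0.07). In HCC827 it read 9.51, 9.60 and 9.47 and then 8.70, 8.94 and 8.85, a log2 change of -0.69 (limma adjusted p = 1.78e-07). The NCI-H358 arrays read 9.70, 9.82 and 9.74 and then 7.48, 7.37 and 7.38, a log2 change of -2.34 (limma adjusted p = 4.84e-14). These are falls of 2.50-fold, 1.62-fold and 5.07-fold, the last just above the 5-fold threshold. All 5 steps in the order of its levels passed, from parental A549 (11.67) through mesenchymal A549 (10.35), parental NCI-H358 (9.75), parental HCC827 (9.53) and mesenchymal HCC827 (8.83) to mesenchymal NCI-H358 (7.41). The fall was deeper in NCI-H358 than in A549 by 1.02 (limma adjusted p = 1.87e-07) and than in HCC827 by 1.65 (adjusted p = 7.63e-10).

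ALDH3B1 (Entrez gene 221), a membrane-associated enzyme for lipid-derived aldehydes, fell most in A549. Parental A549 arrays read 9.00, 8.93 and 8.91 and mesenchymal ones 7.19, 7.40 and 7.33, a log2 change of -1.64 (limma adjusted p = 3.81e-09, standard error 0.12) or 3.12-fold. HCC827 arrays read 8.06, 7.77 and 7.89 and then 6.55, 6.89 and 6.72, a log2 change of -1.18 (limma adjusted p = 1.71e-07) or 2.27-fold. NCI-H358 arrays read 7.19, 7.25 and 7.21 and then 6.84, 6.42 and 6.35, a log2 change of -0.68 (limma adjusted p = 0.000114) or 1.60-fold. Mesenchymal arrays lay below parental arrays in each line, and the fall in A549 exceeded that in NCI-H358 by 0.96 (adjusted p = 0.000138). The smaller gap between A549 and HCC827, 0.46 (adjusted p = 0.0338), lost its call in the fits without A549 parental replicate 1 or 2, A549 mesenchymal replicate 1, HCC827 parental replicate 2 or 3 or HCC827 mesenchymal replicate 2 or 3, with adjusted p values up to 0.0943. The order of levels ended with mesenchymal HCC827 (6.72 ± 0.17, SD, n = 3) and mesenchymal NCI-H358 (6.53 ± 0.26), which did not differ (adjusted p = 0.204), nor did mesenchymal A549 and parental NCI-H358 (adjusted p = 0.527).

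ALDH3B2 (Entrez gene 222), the close relative of ALDH3B1, was dim. In NCI-H358 it read 4.95, 5.34 and 6.25 in parental and 3.58, 3.64 and 3.47 in mesenchymal arrays, a log2 change of -1.95 (limma adjusted p = 6.91e-06, standard error 0.26). The parental arrays were widely spread, and the mesenchymal ones lay at percentile 10.8 of all genes, near the low end of the scale. In HCC827 it read 4.84, 4.07 and 4.06 and then 3.84, 3.37 and 3.76, a log2 change of -0.67 (limma adjusted p = 0.0416). That call was lost without parental replicate 1, the highest array (log2 change -0.41, adjusted p = 0.229), and without mesenchymal replicate 2 or 3, over a range of 0.0311 to 0.229 when the arrays of HCC827 were left out in turn. A549 arrays stayed between 3.48 and 3.80, with a log2 change of 0.06 (95% interval -0.48 to 0.60, adjusted p = 0.884). The 4 groups below parental NCI-H358 and parental HCC827 did not differ as neighbours in the order of its levels. Its probe set, like those of ALDH1A2, ALDH1B1 and ALDH3A2, 4 in all, bears the suffix by which the array maker marks probes that match several transcripts, so signal from related transcripts cannot be told apart here.

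The promoters of ALDH3A2 and ALDH3B1 are shown because these genes fell in all 3 lines, as did ALDH1A3. The 250 bases before the start lie at chr17:19648501-19648750 for ALDH3A2 and at chr11:68010077-68010326 for ALDH3B1 (RefSeq, GRCh38.p14, both on the plus strand), and capitals mark matches of the same 4 motifs.
ALDH3A2: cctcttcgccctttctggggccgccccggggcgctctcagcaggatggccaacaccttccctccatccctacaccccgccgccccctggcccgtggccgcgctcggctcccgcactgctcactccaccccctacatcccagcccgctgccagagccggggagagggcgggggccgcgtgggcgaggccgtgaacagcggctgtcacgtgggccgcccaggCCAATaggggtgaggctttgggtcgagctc
ALDH3B1: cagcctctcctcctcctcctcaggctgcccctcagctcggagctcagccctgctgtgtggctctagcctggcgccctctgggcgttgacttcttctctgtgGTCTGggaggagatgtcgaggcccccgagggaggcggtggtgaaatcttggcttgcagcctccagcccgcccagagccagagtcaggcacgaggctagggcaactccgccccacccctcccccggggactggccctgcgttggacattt
ALDH3A2 held 1 CCAAT match, whose first base lies 30 bases before the start. ALDH3B1 held 1 CAGAC match, on the opposite strand at 149 bases before the start, and no CCAAT. None of the 3 promoters of genes that fell in every line held CACCTG or TGACNNNGC in this window. Among the 35116 promoters only 17.5% held CACCTG and 10.9% TGACNNNGC, so their absence from 3 windows says little. Over the 6 windows searched, 1 per gene, 4 held CCAAT, 2 CAGAC and 1, that of ALDH1A2, CACCTG. ALDH1A2 also held 1 of the 2 CAGAC matches. Both of its matches lie in a stretch that reads as codons without a stop. They may therefore lie in an exon before an alternative start rather than in a promoter, which was not tested. Other annotated starts of these genes were not searched. G or C made up 73.2% of the window of ALDH3A2 and 66.8% of that of ALDH3B1.

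Genes around the ALDH3 reactions were examined by list. Of 16 alcohol dehydrogenases and aldehyde reductases, 1 was higher and 8 lower in A549, 1 higher and 7 lower in HCC827 and 7 lower in NCI-H358. AKR1B10, a reductase of retinaldehyde and lipid aldehydes, fell in all 3 lines, with log2 changes of -2.45, -3.65 and -1.02 (limma adjusted p = 5.42e-08, 2.25e-10 and 0.000824). It read 13.79 ± 0.03 (SD, n = 3) in parental and 11.34 ± 0.05 in mesenchymal A549 cells. Of 11 genes of fatty aldehyde and sphingosine phosphate metabolism, 2 were higher and 2 lower in A549, 5 higher and 6 lower in HCC827, and 4 higher and 3 lower in NCI-H358. SPHK1, the kinase that makes sphingosine 1-phosphate, rose by 3.08, 2.41 and 1.71 log2 units in the 3 lines (limma adjusted p = 1.05e-11, 1.91e-10 and 2.05e-08), opposite in direction to ALDH3A2. SGPP2, a sphingosine 1-phosphate phosphatase, fell in HCC827 by 4.46 (limma adjusted p = 1.52e-12) and in NCI-H358 by 1.48 (adjusted p = 2.27e-06), while A549 gave a log2 change of 0.17 (adjusted p = 0.472). A list of 13 genes held KEAP1, NFE2L2 (the gene of NRF2) and targets of NRF2, the oxidant-responsive factor that also drives ALDH3A1. Of these, 10 were lower and 1 higher in A549, 4 lower and 6 higher in HCC827 and 6 lower and 4 higher in NCI-H358. KEAP1, not counted as a target, is among the lower genes in A549 (log2 change -0.31) and the higher ones in HCC827 (0.77) and NCI-H358 (0.46). NFE2L2 did not pass in any line. NQO1, a quinone reductase, fell by 0.58, 2.75 and 0.82 (7.61e-06, 1.41e-14 and 1.01e-07 as limma adjusted p values), by the most in HCC827. ALDH3A1 did not pass in HCC827, where its parental level was already low (percentile 34.4 of all genes). Whether ALDH3A1 and the NRF2 targets are linked here was not tested.

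**Figure D3:**
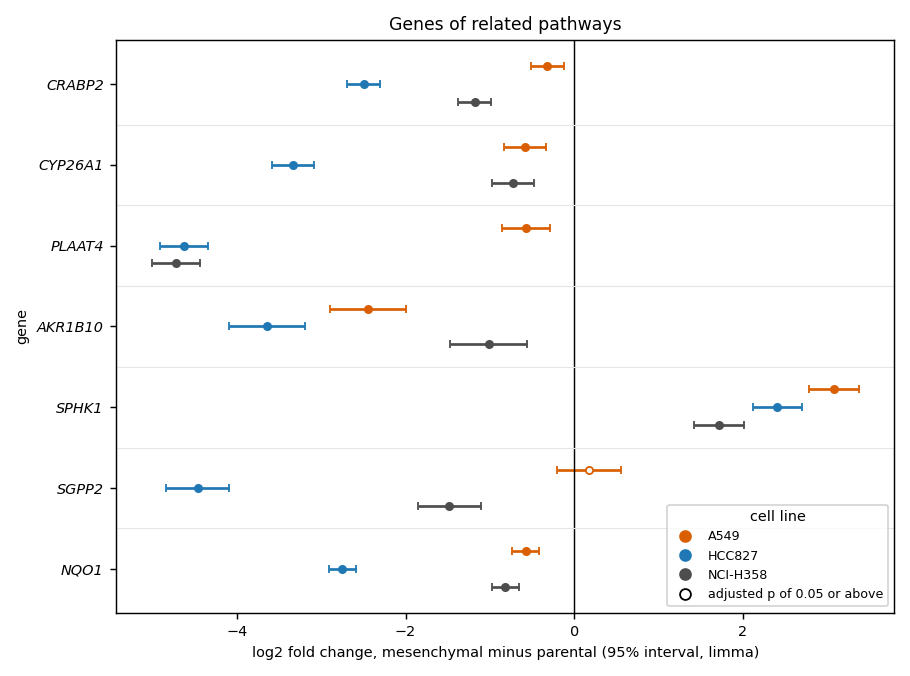
Points give the log2 change, mesenchymal minus parental (horizontal axis), of 7 genes of the retinoid, reductase, fatty aldehyde and NRF2 lists in the 3 lines, with 95% intervals from limma, 3 arrays per group; open points have an adjusted p of 0.05 or above. CRABP2, CYP26A1, PLAAT4, AKR1B10 and NQO1 lie left of 0 in all 3 lines, and SPHK1 lies right of 0 in all 3. The genes shown are a selection from these lists.

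Of the remaining 9 ALDH genes of the table, 5 were lower in A549, 6 were lower in HCC827, and 4 were lower and 1 higher in NCI-H358, with medians of -0.33, -0.28 and -0.23 on the log2 scale. Named after their values were seen, ALDH5A1, the succinate semialdehyde dehydrogenase of GABA breakdown, was lower in all 3 lines, with log2 changes of -0.65, -0.85 and -1.25 (limma adjusted p = 4.40e-06, 1.20e-07 and 1.11e-09), and ALDH9A1, an enzyme of carnitine synthesis, by -0.37, -0.41 and -0.23 (adjusted p = 6.33e-05, 1.82e-05 and 0.00413).

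Before EMT the lines already differed in most of the 10 genes. By limma 8 differed between parental HCC827 and A549 cells, 10 between NCI-H358 and A549 and 9 between NCI-H358 and HCC827, where 57.1%, 57.9% and 52.6% of all genes differed. After EMT the counts were 6, 7 and 5, against 56.6%, 58.8% and 52.6% of all genes. The change upon EMT itself differed for 6 of the 10 genes between HCC827 and A549, for 8 between NCI-H358 and A549 and for 7 between NCI-H358 and HCC827, against 42.2%, 42.8% and 37.9% of all genes.

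Across the 18 arrays some members ran alike, as a description of arrays that share a line and a state. Pearson's r was 0.86 between ALDH3A2 and ALDH3B1, 0.84 between ALDH3A1 and each of them, and 0.88 between ALDH1B1 and ALDH2, whereas it was -0.77 between ALDH2 and ALDH3B2. Over the 9059 other genes whose group means also spanned more than 1 log2 unit, the pattern of ALDH1A3 was most like those of CD9 (r = 0.970), GRHL1 (0.969) and GCH1 (0.968), and that of ALDH3A1 most like those of EVA1C (0.986), KIAA0319 (0.985) and COL4A4 (0.979). ALDH1A1 ran closest with GABRA5 (0.998), FBN2 (0.998) and WT1 (0.998), which likewise separated A549 from the other lines. The nearest genes were MIF4GD (0.983), ADCK2 (0.977) and BAG3 (0.977) for ALDH3A2, NCOA7 (0.987), MNX1-AS1 (0.967) and NPC1 (0.961) for ALDH3B1, and KLHL41 (0.953), ATP2C2 (0.949) and HOPX (0.942) for ALDH3B2. For ALDH2 they were TMEM248 (0.993), PHF21A (0.988) and VKORC1L1 (0.986), and CLTCL1 (0.952) and DUXAP10 (0.942) were among the nearest to ALDH1L2.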

How the data were processed

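The authors hybridized total RNA to Affymetrix U133 Plus 2.0 arrays and normalized the arrays by RMA in R, a procedure of background correction, quantile normalization between arrays and a robust summary of the probes of each set. The deposited table holds log2 values for 19849 genes, 1 probe set each. How that probe set was chosen, and the genome build, are not given in the sources used here. The RefSeq gene table held 19326 of the Entrez IDs, those of the 10 members included. All 18 columns bear a sample title. Equalizing the arrays can hide shifts shared by most genes, and signal flattens near both ends of the scale.

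Mesenchymal and parental cells were compared with limma 3.58.1 in R 4.3.3 (lmFit, eBayes) in 1 fit of 6 groups with no covariate and no filter. Differences of the change between lines were contrasts of that fit. Precision rests on 3 arrays per group. Steps were tested on simulated data. The members, gene lists and tests were chosen with earlier results of these data known. Named beyond the members were list genes past the study's thresholds in at least 1 line, or changed more than 2-fold the same way in all 3 lines, and EMT markers; EPCAM met the rule and is not described, and some other genes that met it are not reported here. Likeness was Pearson's r over arrays. Alternatives tried are given with their effect in the closing section.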

Additional observations from a re-analysis of the deposited data

Results flagged for a closer look

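In 21 of the 30 comparisons of a gene and a pair of lines, the change upon EMT differed with a limma adjusted p below 0.05. Over all genes it differed for 42.2% between HCC827 and A549, 42.8% between NCI-H358 and A549 and 37.9% between NCI-H358 and HCC827. The pairs of lines share arrays, so the comparisons of a gene are not independent. Differences are on the log2 scale, the line named first minus the other. Between HCC827 and A549 they were -2.13 for ALDH1A3, 3.50 for ALDH1L2, 0.68 for ALDH2, 4.49 for ALDH3A1, 0.63 for ALDH3A2 and 0.46 for ALDH3B1. Between NCI-H358 and A549 they were -4.29 for ALDH1A3, 0.33 for ALDH1B1, 2.31 for ALDH1L2, 1.77 for ALDH2, 3.25 for ALDH3A1, -1.02 for ALDH3A2, 0.96 for ALDH3B1 and -2.01 for ALDH3B2. Between NCI-H358 and HCC827 they were -2.16 for ALDH1A3, -1.18 for ALDH1L2, 1.09 for ALDH2, -1.24 for ALDH3A1, -1.65 for ALDH3A2, 0.50 for ALDH3B1 and -1.28 for ALDH3B2. ALDH3A1 and ALDH1A3, the genes with the largest differences, ranked the lines unlike each other: A549 had the deepest fall of ALDH3A1 and the smallest fall of ALDH1A3. The difference of ALDH1B1 (adjusted p = 0.0469) lost its call with any array of the lines left out except NCI-H358 parental replicate 2 or 3 (adjusted p up to 0.134). That of ALDH3B1 between NCI-H358 and HCC827 (adjusted p = 0.0221) lost it without HCC827 parental replicate 1, HCC827 mesenchymal replicate 1 or NCI-H358 mesenchymal replicate 1 (adjusted p up to 0.0649). The lines also had unequal parental levels, whose part in these differences was not tested.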

How the results depend on the processing

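The counts of changed members stayed within 1.5 times under every alternative run, except that in HCC827 the count of 6 was 3 with a fold change above 2 also required. With 1 array left out they ranged from 4 to 5 in A549, 5 to 7 in HCC827 and 7 to 7 in NCI-H358. The study used limma for its arrays and names Student's t-test as its default for other data. Applied to each gene here, that t-test kept 0, 0 and 0 of the members past the study's thresholds (1, 2 and 2). With 3 arrays per group and no spread shared between genes, it can hardly reach an adjusted p under 1e-05, so these counts decide little. At an unadjusted p below 0.05 the t-test called 6, 5 and 7 members of any size, and after Benjamini-Hochberg 5, 5 and 7. The filter on dim genes keeps 7 of the 10 members and removes ALDH1A2, ALDH1L2 and ALDH3B2. It left 1 member in HCC827, ALDH1A3, because ALDH1L2 was no longer tested. Centring arrays on their medians left 1 in NCI-H358, where ALDH3A2 lies at the fold threshold. Leaving out NCI-H358 parental or mesenchymal replicate 2 did the same (range 1 to 2). Centring moved the split of calls over all genes in A549 from 38.3% to 48.9% higher; the members called there went from 5 to 4, all lower. Calls near the threshold also moved. Centring ended those of ALDH1B1 in A549 (adjusted p = 0.153), ALDH3B2 in HCC827 (0.0596) and the difference of ALDH1B1 between NCI-H358 and A549 (0.0693). Leaving out parental replicate 1 of all 3 lines together, whose title numbers precede those of all other arrays, an alternative chosen after seeing the data, ended those of ALDH3B2 in HCC827 (0.140) and of the differences of ALDH1B1 between NCI-H358 and A549 (0.0847) and of ALDH3B1 between NCI-H358 and HCC827 (0.108). The t-test ended that of ALDH3B2 in HCC827 (0.176). The filter on dim genes brought calls for ALDH1A1 in HCC827 (0.0426) and for the differences of ALDH1A1 (0.0335) and ALDH1B1 (0.0352) between HCC827 and A549. It kept ALDH1A1 only through its A549 level, as the gene was dim in HCC827, so the ALDH1A1 calls under it add no support. Leaving out 1 array brought calls for the difference of ALDH1A1 between HCC827 and A549 without HCC827 parental replicate 1 (0.0451) or 3 (0.0111) or mesenchymal replicate 1 (0.0496), and for that of ALDH1B1 without HCC827 parental replicate 3 (0.0186). Values near 0 turned sign: with centring, ALDH1A2 in HCC827 (0.0034) and the difference of ALDH1B1 between NCI-H358 and HCC827 (-0.0033); without the 3 parental replicates 1, ALDH1B1 in HCC827 (-0.017) and the difference of ALDH1A2 between NCI-H358 and HCC827 (0.024). With 1 array left out, ALDH1B1 in HCC827 ranged from -0.017 to 0.16, ALDH1A2 from -0.13 to 0.041 in HCC827 and -0.13 to 0.0046 in NCI-H358, the differences of ALDH1A2 from -0.024 to 0.26 (HCC827 minus A549), -0.034 to 0.25 (NCI-H358 minus A549) and -0.11 to 0.066 (NCI-H358 minus HCC827), and that of ALDH1B1 from -0.068 to 0.11 (NCI-H358 minus HCC827). None of these passed the test. No paired analysis was possible because the labels give no replicate numbers, and those used here follow the order of deposit. Signal at both ends of the scale limits ALDH1A1 and ALDH3B2, and low parental signal limits ALDH1L2 in HCC827 and NCI-H358.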
